A study of Mus musculus with 6 samples.

Results

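The transferrin receptor and the genes of cellular iron handling were followed in mouse bone marrow cells labelled as erythroblasts, the nucleated precursors of red cells. The set holds 9 genes chosen by name (Tfrc, Tfr2, Slc11a2, Steap3, Fth1, Ireb2, Aco1, Slc40a1 and Slc25a37) and every probe set that the platform annotation gives to 1 of them alone. This gave 22 of the 22690 probe sets in the table, 6 of them for Tfrc. The rule names genes and sets no threshold on a measured value.

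RNA came from bone marrow cells of the FVB/N strain that had been sorted as positive for CD71, which is the transferrin receptor protein itself. Of 6 samples, each on 1 Affymetrix array, 3 were wild type and 3 carried a transgene for RPS19 with the R62W change. RPS19 is a ribosomal protein, and the study concerns how this change acts in Diamond-Blackfan anaemia, in which the marrow makes too few red cells. The transgene's promoter, the age and sex of the mice and whether each sample came from a mouse of its own were not stated in any source used here. The p-values therefore speak of the spread among these 6 arrays alone, part of which may be technical. The sort itself sets a limit on Tfrc, since both groups were selected for cells with the receptor on their surface.

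Erythroblasts take in most of their iron as transferrin bound to the transferrin receptor, which is internalised. Iron is released in the endosome, reduced there, carried into the cytosol and passed to mitochondria, where it enters haem. The remainder is stored in ferritin or leaves the cell through ferroportin, and the iron regulatory proteins adjust the messenger RNAs of these steps by binding iron-responsive elements in them.

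Erythroid markers averaged 9.40 to 9.46 on the log2 scale on the wild type arrays and 8.93 to 9.70 on the mutant arrays, and 14 of the 15 analysed lay above the median probe set of the array. Markers of other marrow cells varied in level. Above the median probe set lay 7 of 9 B lineage, 5 of 7 progenitor and 9 of 18 macrophage and monocyte genes. Only 3 of 7 megakaryocyte genes and 1 of 6 T and NK genes did. Neutrophil genes averaged 10.68 to 10.79 in wild type and 9.73 to 11.45 in mutant samples, with 10 of 10 above the median probe set. On each array this average lay above the erythroid average, so the markers do not show that erythroblasts alone were present. B lineage genes averaged 6.09 to 6.15 and 6.16 to 8.07, megakaryocyte genes 5.20 to 5.21 and 5.52 to 5.92, and macrophage genes 5.75 to 5.84 and 5.18 to 5.64, so that these 3 lists did not overlap between the groups. For B lineage genes mutant array 1 lay just above the wild type arrays. The only called gene of these lists was Vwf (1.48), and the megakaryocyte list had a median difference of 0.25. Progenitor genes (6.43 to 6.49 and 5.89 to 6.99) and T and NK genes (4.85 to 4.96 and 4.67 to 5.04) overlapped. In bulk RNA, fewer cells of a type and less RNA per cell cannot be told apart. The mutant arrays also spread more than the wild type arrays: the median SD of the 22 probe sets was 0.069 over the wild type arrays and 0.32 over the mutant arrays, and 21 of them spread more in the mutant (76.7% of all tested probe sets).

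Differences are given on the log2 scale, mutant minus wild type, with the standard error of limma's fit over 22629 probe sets. A probe set was called at a Benjamini-Hochberg adjusted p under 0.05. Of the 22 iron handling probe sets, 4 were called, all of them lower in the mutant: 3 of Tfrc and 1 of Fth1. Over all tested probe sets 2.35% were called, 1.4% as lower and 0.946% as higher. The mutant mean was lower for 16 of the 22 (52.5% of all tested), and the median difference was -0.30, against -0.01 over all tested probe sets. All mutant values lay below all wild type values for 10 of the 22, of which 6 were Tfrc probe sets, and above them for 1. The same held for 14.7% and 11.4% of all tested probe sets. Probe sets of 1 gene read the same transcripts and are not independent, so these counts are a description.

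**Figure D1:**
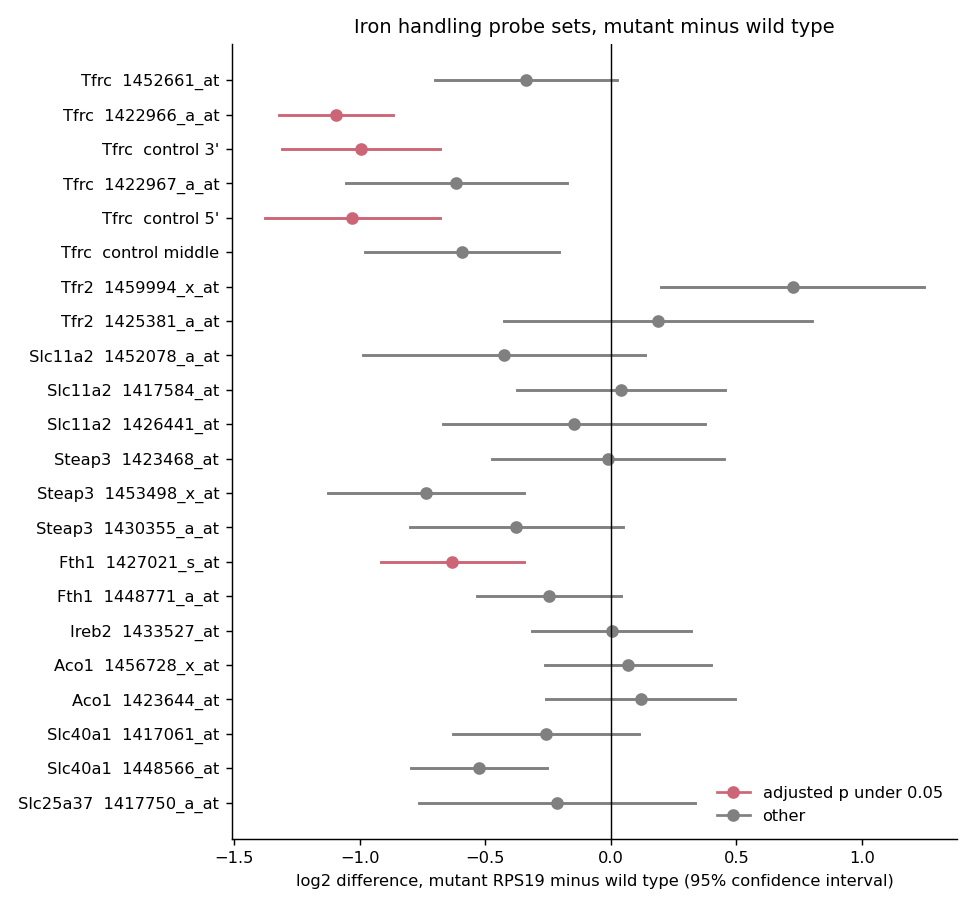
Log2 difference, mutant RPS19 minus wild type (x axis), of each of the 22 probe sets (y axis), with points for limma's estimate and lines for its 95% confidence interval. The 4 probe sets in red passed the test, at -1.10, -0.996, -1.03 and -0.63, whereas both Tfr2 probe sets lie to the right of 0.

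The transferrin receptor transcript was lower in the mutant at each of its 6 probe sets, and 3 of these passed the test. Tfrc encodes the receptor that brings transferrin-bound iron into the cell and whose level largely sets how much iron an erythroblast can take up. The probe set 1422966_a_at read 8.97, 8.97 and 8.90 on wild type arrays 1, 2 and 3 and 7.73, 7.89 and 7.94 on mutant arrays 1, 2 and 3 (log2). The mutant arrays lay close together and all below the lowest wild type array. The transcript fell by 1.10 ± 0.097 at this probe set (log2, SE, adjusted p = 0.0039), which is a 2.14-fold lower level.

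The array also carries 3 control probe sets along the Tfrc transcript, near its 3' end, in its middle and near its 5' end. The 3' control read 8.89, 8.83 and 8.82 on the wild type arrays and 7.57, 7.94 and 8.04 on the mutant arrays, and fell by 0.996 ± 0.13 (adjusted p = 0.019). The 5' control read 7.11, 7.16 and 7.12 in wild type and 5.83, 6.06 and 6.41 in mutant samples, and fell by 1.03 ± 0.15 (adjusted p = 0.024). Both thus showed a loss of about the size seen at 1422966_a_at, with mutant array 1 the lowest and mutant array 3 the highest of the mutant arrays. The middle control read 6.95, 7.07 and 7.08 against 6.08, 6.52 and 6.72, a difference of -0.59 ± 0.17 (adjusted p = 0.11).

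Neither of the remaining Tfrc probe sets passed. The dimmer, 1422967_a_at, read 7.67, 7.61 and 7.67 in wild type and 6.73, 6.90 and 7.48 in mutant samples, a difference of -0.62 ± 0.19 (adjusted p = 0.14). The brightest, 1452661_at, read 12.15, 12.14 and 12.12 in wild type and 11.45, 11.99 and 11.96 in mutant samples, a difference of -0.34 ± 0.15 (95% confidence interval -0.70 to 0.02, adjusted p = 0.29). This difference was -0.21 (adjusted p = 0.57) when the quantile normalisation was repeated. At this probe set mutant arrays 2 and 3 lay just under the wild type arrays and array 1 lay well below both. The probe sets of Tfrc therefore shared a direction but not a size.

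**Figure D2:**
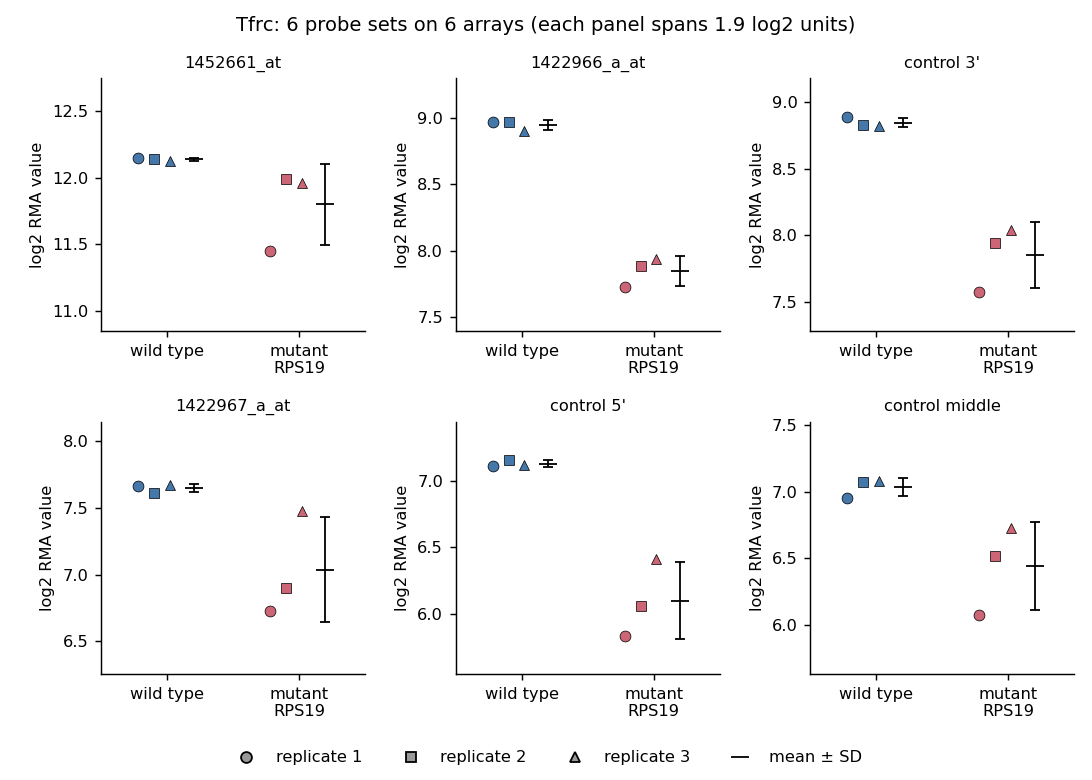
Log2 value (y axis) of each Tfrc probe set, 1 panel each, on the 3 wild type arrays (blue) and the 3 mutant RPS19 arrays (red); symbols mark the replicate and bars the mean ± SD. In every panel all mutant points lie below all wild type points, with the widest gap at 1422966_a_at (7.73 to 7.94 against 8.90 to 8.97).

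Within an array, the brightest probe set stood 3.19 ± 0.026 above 1422966_a_at in wild type and 3.95 ± 0.20 above it in the mutant (log2, SD, 3 arrays a group). All 3 mutant values exceeded all wild type values, and the exact permutation p of 0.1 (two-sided) is the smallest that 3 arrays against 3 can give. It was adjusted p = 0.13 over 8 such within-array comparisons. Apart from those of the Tfrc controls, they used genes chosen because a probe set of theirs did not overlap between the groups. That 6 of the 8 had p = 0.1 in the exact permutation test is therefore a description only. The 3' control stood above the 5' control by 1.72 ± 0.055 in wild type and 1.75 ± 0.13 in mutant samples (exact permutation p = 0.8, n = 3 each), and above the middle control by 1.81 ± 0.10 and 1.41 ± 0.091 (exact permutation p = 0.1).

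The same 3' minus 5' value rises where RNA or its copying is less complete, and for other transcripts it was higher in the mutant. For Actb it was 1.31 ± 0.054 on wild type and 1.70 ± 0.16 on mutant arrays, for Gapdh -0.066 ± 0.019 and 0.27 ± 0.032, and for Pcx 1.34 ± 0.075 and 1.72 ± 0.062 (SD, n = 3 each, exact permutation p = 0.1 for each). Spiked polyadenylated controls, bacterial transcripts added before labelling, read 8.74 to 8.77 on the wild type arrays and 11.58 to 13.47 on the mutant arrays. The part of these differences in the Tfrc values was not tested.

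**Figure D3:**
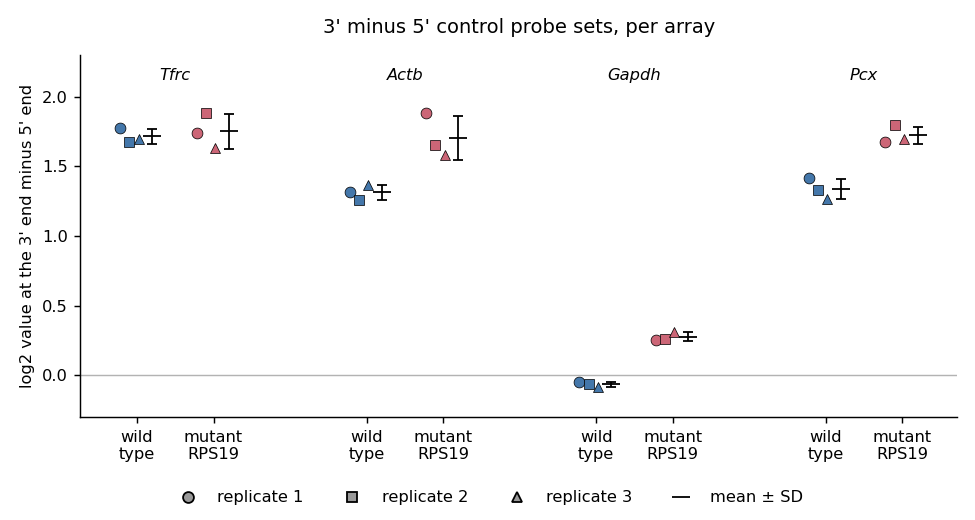
Log2 value at the 3' control probe set minus that at the 5' control probe set (y axis) for Tfrc, Actb, Gapdh and Pcx, per array, with the mean ± SD of 3 arrays. The groups overlap for Tfrc (1.67 to 1.78 and 1.63 to 1.88), and do not overlap for the other 3 transcripts.

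The Tfrc calls were lost without some single arrays, and calls over all tested probe sets shifted likewise. Their count went from 531 to 39, 36 and 48 without wild type replicate 1, 2 and 3. It was 2547, 203 and 846 without mutant replicate 1, 2 and 3. For 1422966_a_at the difference stayed between -1.03 and -1.14 when each array was left out in turn, and the adjusted p was 0.051 without wild type replicate 1 and 0.056 without wild type replicate 2. The 3' control was not called without wild type replicate 1 (adjusted p = 0.14), 2 (0.13) or 3 (0.12) or mutant replicate 2 (0.051), and the 5' control likewise (0.15, 0.15, 0.13 and 0.078). In contrast, 1422967_a_at passed without mutant replicate 3 (-0.84, adjusted p = 0.016) and the middle control without mutant replicate 1 (-0.41, adjusted p = 0.047). On the mean of its 3 probe sets other than controls, Tfrc differed by -0.68 (adjusted p = 0.075).

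Among other genes, those closest to 1422966_a_at in their values relative to the wild type mean over the 6 arrays were Csnk2a1, the catalytic subunit of casein kinase, with a root mean square difference of 0.029, the splicing factor gene Srsf1 (0.057) and Nfya, a subunit of the CCAAT-binding factor (0.079). Closest to the brightest Tfrc probe set were Add1, which encodes the adducin of the red cell membrane skeleton (0.028), Lmo2, of the erythroid transcription complex (0.033), and Fam210b (0.037). For the 3' control they were Gas5, a non-coding RNA that hosts snoRNAs (0.040), Srsf1 (0.077) and Supt16 (0.080), and for the 5' control Gas5 (0.064), Hacd3 (0.074) and Supt16 (0.078). Each was the nearest of 1063 to 9042 probe sets, so close matches over 6 arrays are a description only.

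Promoter windows of 250 bases before to 50 after a transcript's start were at hand for 6 of the 9 genes, from RefSeq on GRCm38.p6. They are shown because transcripts of the set differed in direction, and 30 bases at 1 place are given for each of 4 genes that had a match. Further matches, not shown, were CCAAT in Tfrc, GGAAGT and CCAAT in Tfr2, and CCAAT and GGAAGT in Steap3. The letters searched on both strands were AGATAA with its variant TGATAA (the GATA factor motif), then CCAAT (the binding letters of the CCAAT factor), followed by GGAAGT (which holds an Ets family core) and lastly TGACGT (the core of the cAMP response element). Capitals mark every match within the bases shown.
Tfrc (chr16:32608892-32608921, plus strand): gtacgtgcggaaGGAAGTGACGTagatcca
Fth1 (chr19:9982627-9982656, plus strand): cccgctgcgctgATTGGccagcgctcgcct
Tfr2 (chr5:137570902-137570931, plus strand): gcctgtcagggcTGATAAggggccctctag
Steap3 (chr1:120271108-120271137, minus strand): gtccggagagtgTTATCTccctccagttat
In Tfrc the GGAAGT and TGACGT letters share a T, and the GGAAGT match begins at base 9 counted from the more upstream of its annotated starts. The capitals are the reverse complement of CCAAT in Fth1 and of AGATAA in Steap3. Such letters are common: of all 32851 windows, 11.2% held AGATAA, 9.05% TGATAA, 37.4% CCAAT, 23.8% GGAAGT and 7.51% TGACGT. A match is not a site that was shown to be used. Slc11a2, Slc40a1 and Slc25a37 had no window in the table.

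Tfr2, the second transferrin receptor, which senses transferrin iron and in erythroid cells is known as a partner of the erythropoietin receptor, had a higher mutant mean at both of its probe sets, opposite in sign to Tfrc, but was not called. The probe set 1459994_x_at read 9.24, 9.15 and 9.21 in wild type and 9.42, 9.97 and 10.40 in mutant samples. It was the member probe set on which all mutant values lay above all wild type values, with mutant array 3 the highest. Its mutant mean was higher by 0.73 ± 0.22 (95% confidence interval 0.20 to 1.25, adjusted p = 0.14) and passed without mutant replicate 1 (0.98, adjusted p = 0.0078). Calls over all tested probe sets also rose without that array, from 531 to 2547, and to 846 without mutant replicate 3. The same background holds for the genes below that passed without either array. The other Tfr2 probe set, 1425381_a_at, read 8.76, 8.82 and 8.59 against 8.32, 8.96 and 9.46, a difference of 0.19 ± 0.26 (adjusted p = 0.75) that turned to -0.09 without mutant replicate 3. Probe sets whose names end in x_at hold probes that can bind related transcripts. Within an array, the difference between 1459994_x_at and Tfrc 1422966_a_at was 0.26 ± 0.064 for wild type and 2.08 ± 0.38 for mutant arrays (SD, log2, 3 arrays a group). Neither probe set overlapped between the groups, and they lay in opposite directions, so their difference had to separate the groups. Its exact permutation p of 0.1, the smallest possible, was thus fixed beforehand and adds nothing to the values of each.

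Of the genes that move iron out of the endosome, none was called. Steap3 encodes the endosomal reductase that turns ferric into ferrous iron. Its probe set 1453498_x_at read 6.09, 5.94 and 6.05 in wild type and 5.04, 5.16 and 5.67 in mutant samples, without overlap. The difference was -0.74 ± 0.17 (adjusted p = 0.071), and it passed without mutant replicate 1 (-0.61, adjusted p = 0.046) and without mutant replicate 3 (-0.93, adjusted p = 0.012). The probe set 1430355_a_at differed by -0.38 ± 0.18 (adjusted p = 0.31). At 1423468_at, however, the values were 6.79, 6.67 and 6.81 against 6.26, 6.97 and 6.99, a difference of -0.01 ± 0.20 (adjusted p = 0.98) that turned to 0.23 without mutant replicate 1.

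Slc11a2 encodes DMT1, the transporter that carries ferrous iron from the endosome to the cytosol. Its brightest probe set, 1452078_a_at, read 7.82, 7.63 and 7.58 in wild type and 6.67, 7.41 and 7.67 in mutant samples. Mutant array 1 was low and array 3 lay within the wild type range, and the mean difference was -0.43 ± 0.24 (95% confidence interval -0.99 to 0.14, adjusted p = 0.40). The other probe sets differed by 0.04 ± 0.18 (1417584_at, -0.01 when the quantile normalisation was repeated) and by -0.15 ± 0.22 (1426441_at, 0.13 without mutant replicate 1), with adjusted p of 0.94 and 0.78.

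Slc25a37 encodes mitoferrin-1, the mitochondrial iron importer of erythroid cells. Its single probe set read 11.58, 11.55 and 11.45 in wild type and 10.76, 11.77 and 11.40 in mutant samples. The groups overlapped, with mutant array 1 the lowest and mutant array 2 the highest of all 6. Mutant minus wild type was -0.22 ± 0.23 (95% confidence interval -0.76 to 0.33, adjusted p = 0.68), and 0.06 without mutant replicate 1.

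The ferritin heavy chain gene Fth1 was called at 1 of 2 probe sets. It encodes the subunit that oxidises iron for storage in the ferritin shell, and its translation is held back by the iron regulatory proteins. The probe set 1427021_s_at read 12.93, 12.93 and 12.80 in wild type and 12.03, 12.30 and 12.42 in mutant samples, without overlap. It fell by 0.63 ± 0.12 (log2, SE, adjusted p = 0.048), a 1.55-fold lower level. The second probe set, 1448771_a_at, read 12.32, 12.29 and 12.41 against 11.88, 12.11 and 12.28, so that mutant array 3 all but reached the wild type range, and the mean difference was -0.25 ± 0.12 (95% confidence interval -0.53 to 0.04, adjusted p = 0.33).

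The call of Fth1 lay near the threshold. It was lost when the quantile normalisation was repeated (-0.49, adjusted p = 0.12), without wild type replicate 1 (adjusted p = 0.23), 2 (0.24) or 3 (0.17) and without mutant replicate 2 (0.11). On the mean of its probe sets Fth1 differed by -0.44 (adjusted p = 0.13). Names ending in s_at mark probe sets whose probes match transcripts of more than 1 gene, and ferritin has near-identical processed copies. Nearest in profile to 1427021_s_at were Tmem41b, of lipid handling in the endoplasmic reticulum (0.044), Cnnm2, a magnesium transport gene (0.045), and Sgms1, a sphingomyelin synthase (0.052).

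Slc40a1 encodes ferroportin, the iron exporter, which erythroblasts and iron-recycling macrophages both make. The probe set 1448566_at read 8.29, 8.25 and 8.12 in wild type and 7.68, 7.54 and 7.87 in mutant samples, without overlap and with mutant array 2 the lowest. The difference was -0.53 ± 0.12 (adjusted p = 0.066), and it passed without mutant replicate 1 (-0.52, adjusted p = 0.041) and without mutant replicate 3 (-0.61, adjusted p = 0.037). The brighter 1417061_at read 9.16, 9.15 and 8.999 against 8.52, 8.87 and 9.13, overlapping, a difference of -0.26 ± 0.16 (adjusted p = 0.43). The 18 macrophage and monocyte markers had a median difference of -0.27, with Axl (0.17) and Marco (0.04), picked out after their values were seen, of the other sign, and 0 called by limma, and 9 of the 18 lay above the median probe set. Their part in the Slc40a1 and Fth1 values was not tested.

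Neither iron regulatory protein gene passed the test. Ireb2 encodes iron regulatory protein 2, which is degraded when iron is plentiful. It read 7.09, 7.11 and 7.13 in wild type and 6.83, 7.20 and 7.31 in mutant samples, a difference of 0.003 ± 0.14 (95% confidence interval -0.31 to 0.32, adjusted p = 0.99). Aco1 encodes iron regulatory protein 1, which serves as cytosolic aconitase when it holds an iron-sulfur cluster. Its probe sets differed by 0.07 ± 0.14 (1456728_x_at, 8.74, 8.88 and 9.20 against 8.92, 8.94 and 9.17) and by 0.12 ± 0.16 (1423644_at, 6.49, 6.53 and 6.30 against 6.34, 6.43 and 6.90), with adjusted p of 0.85 and 0.75. All 3 probe sets overlapped between the groups. The intervals of Aco1 ran from -0.26 to 0.40 and from -0.26 to 0.50, and array data say nothing of the binding activity of either protein.

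The 3 mutant arrays did not move alike. Mutant array 1 was the lowest of the mutant arrays on 20 of the 22 probe sets, and the lowest of all 6 arrays on 17 (28.3% of all tested probe sets). Mutant array 3 was the highest of the mutant arrays on 20 and the lowest of all 6 on 0 (17.9%). For the order among the mutant arrays alone, the share over all tested probe sets was not counted, so those counts are a description. The median deviation of the 22 probe sets from their wild type mean was -0.64 for mutant array 1, -0.23 for array 2 and -0.03 for array 3. The erythroid markers averaged 8.93, 9.63 and 9.70 on mutant arrays 1, 2 and 3, the same order, whereas neutrophil markers averaged 11.45, 10.22 and 9.73. Their part in the order of the arrays was not tested.

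**Figure D4:**
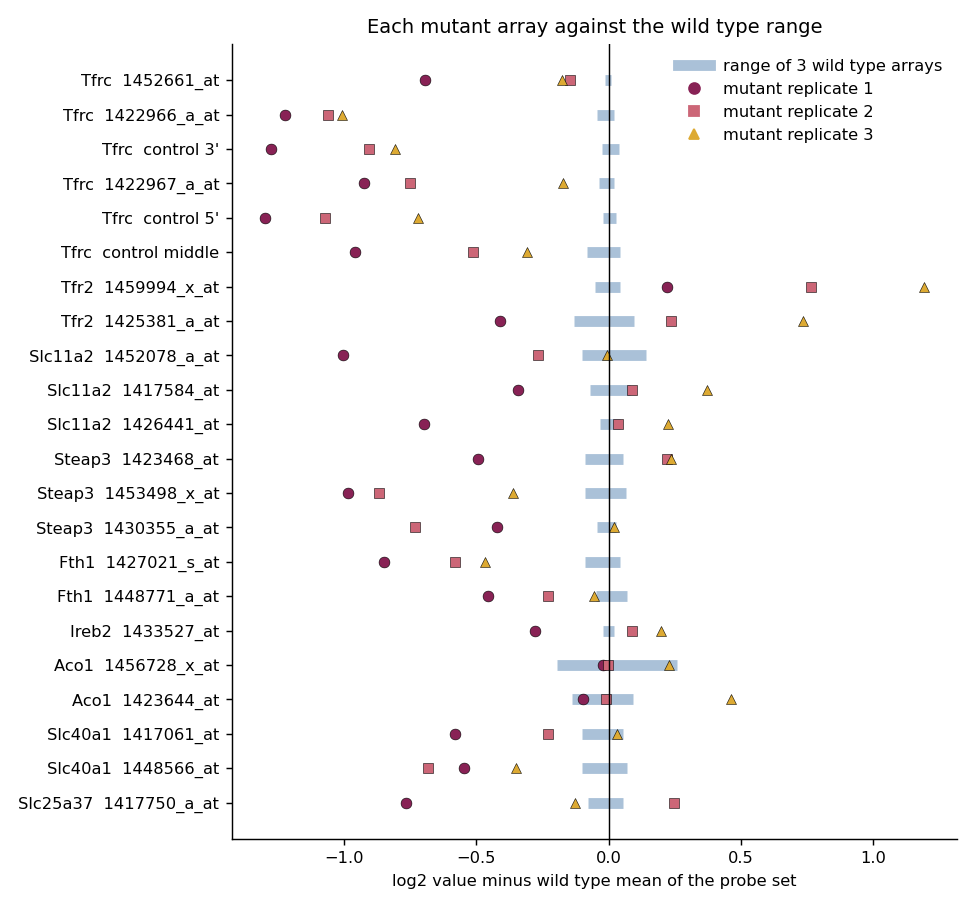
Log2 value minus the wild type mean of the probe set (x axis) for each of the 22 probe sets (y axis); blue bars span the 3 wild type arrays and symbols are the mutant arrays. Mutant replicate 1 is the leftmost mutant symbol on 20 of the 22 rows, and all 3 mutant symbols lie left of the wild type bar on each of the 6 Tfrc rows.

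Other genes of iron handling were taken from 6 lists with 84 genes, of which 60 were analysed here, with 119 probe sets. Of these, 1 was called higher and 2 were called lower, which is 2.52% against 2.35% of all tested probe sets. Their median difference was -0.04 and 68 of 119 had a lower mutant mean. Slc25a28, which encodes mitoferrin-2, the paralogue of Slc25a37 found in most tissues, rose. It read 7.21, 7.19 and 6.97 in wild type and 7.90, 7.90 and 7.75 in mutant samples, without overlap, a difference of 0.73 ± 0.11 (adjusted p = 0.025). Slc39a8, a zinc transporter that also carries iron, fell at 1 of its 2 probe sets, from 6.20, 5.91 and 5.79 to 4.38, 4.24 and 4.87 (-1.47 ± 0.19, adjusted p = 0.015). Its brighter probe set read 7.79, 8.19 and 8.005 against 7.36, 7.72 and 8.04, overlapping, a difference of -0.29 ± 0.19 (adjusted p = 0.45). Vhl, whose product marks hypoxia-inducible factors for degradation, fell from 5.13, 5.03 and 5.03 to 4.36, 4.62 and 4.53 (-0.56 ± 0.10, adjusted p = 0.043).

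These calls too were lost without some single arrays and under other settings. Without wild type replicate 1, 2 or 3 the adjusted p was 0.14, 0.15 and 0.12 for Slc25a28, 0.11, 0.10 and 0.083 for Slc39a8 and 0.22, 0.21 and 0.18 for Vhl. Without mutant replicate 2 it was 0.076 for Slc25a28 and 0.077 for Vhl, and without mutant replicate 3 it was 0.052 for Vhl. With an intensity trend in limma's variance prior it was 0.057 for Vhl, while the Bmpr1a probe set with the lowest p passed (0.046). With the replicate block it was 0.051 for Slc39a8, 0.060 for Slc25a28 and 0.12 for Vhl.

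By list, the transferrin cycle partners (20 probe sets of 11 genes) held the Slc39a8 call and had a median of -0.10. Mitochondrial iron and iron-sulfur assembly (28 of 15 genes) held the Slc25a28 call and had a median of -0.11. Within this list Abcb10, which stabilises mitoferrin-1 in the inner membrane and was chosen after its values were seen, differed by -1.02 ± 0.27 (adjusted p = 0.10), -0.99 ± 0.31 and -0.52 ± 0.27 at its 3 probe sets. The first of these read 8.50, 8.50 and 8.43 in wild type and 6.76, 7.76 and 7.86 in mutant samples, and passed without mutant replicate 1 (-0.67, adjusted p = 0.0073). The list named control of the iron regulatory proteins (15 of 9 genes) held the Vhl call and had a median of -0.06. Vhl was placed in it by choice, and an action of Vhl on these proteins was not tested.

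The other 3 lists had 0 calls by limma. Over all tested probe sets 19.1% had an unadjusted p under 0.05. In the lists above that held a call, in the order given, 4 of 20, 8 of 28 and 5 of 15 probe sets did. Ferritin and iron chaperones (19 probe sets of 8 genes) had a median of 0.07 and 1 unadjusted p under 0.05. At the probe set with the lowest p, Pcbp3, of the iron chaperone family, differed by 0.25 ± 0.088, the mitochondrial ferritin gene Ftmt by 0.22 ± 0.10 and Bola2, of cytosolic iron-sulfur transfer, by 0.25 ± 0.14. The other Pcbp3 probe set, the brighter, was at -0.10 ± 0.12, and the other 4 of Bola2 lay between -0.22 and 0.17. Iron export and the hepcidin axis (26 of 10 genes) had a median of -0.04 and 2 unadjusted p under 0.05, with the BMP receptor gene Bmpr1a at -0.48 ± 0.11 (adjusted p = 0.072, wild type mean 2.60, among the dimmest probe sets), and its signalling partners Smad4 at 0.17 ± 0.099 and Smad7 at -0.40 ± 0.25. The other 4 probe sets of Bmpr1a lay between -0.58 and 0.15, and the other 2 of Smad4 at 0.13 and -0.04. Other transcripts listed as having an iron-responsive element (11 of 7 genes) had a median of -0.06 and 1 unadjusted p under 0.05. The element itself was not looked for in any of them. In this list Ndufs1, of respiratory complex I, differed by -0.35 ± 0.13, Alas2, the first enzyme of erythroid haem synthesis, by 0.35 ± 0.20 and Sdha, of succinate dehydrogenase, by -0.18 ± 0.11 (0.05 ± 0.086 at its other probe set). Tests with an own variance for each probe set, equal or unequal between the groups, with Benjamini-Hochberg adjustment, also called 0 probe sets over all 6 lists.

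**Figure D5:**
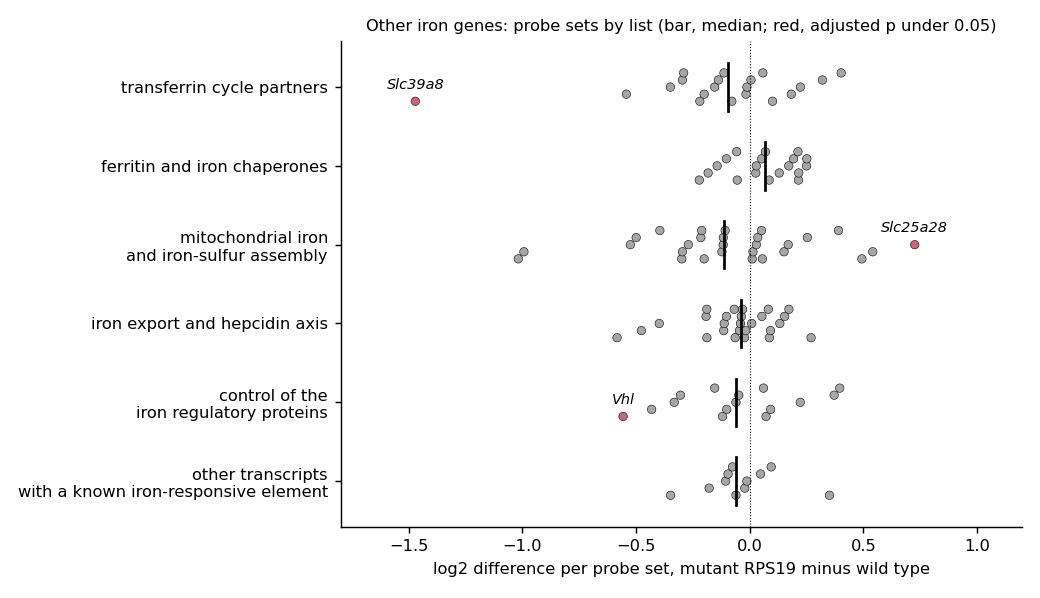
Log2 difference, mutant RPS19 minus wild type (x axis), of the 119 probe sets of other iron genes, by list (y axis); vertical bars are list medians and red points passed the test. The called points are Slc39a8 (-1.47), Slc25a28 (0.73) and Vhl (-0.56), and the medians of the 6 lists lie between -0.11 and 0.07.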

How the data were processed

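The deposited table holds log2 expression values of 22690 probe sets on 6 arrays, between 1.85 and 14.20, with array medians of 5.35 to 5.41. The authors made them with GCOS, Affymetrix Expression Console and RMA (background correction, quantile normalisation and summary by probe set), per the submitters' processing notes, with versions and the set of arrays normalised jointly not given in the sources used here. Gene symbols came from the platform annotation of 2016 through Entrez identifiers. Of the 64 control probe sets only the 3 annotated to Tfrc entered the fit, which left 22629 probe sets. Groups were compared with limma 3.58.1 (lmFit and eBayes, two-sided, no covariates) in R 4.3.3, adjusted by Benjamini-Hochberg over all of them. The fit was tested on simulated data with the same spread in both groups. It recovered 65% of 100 changes of 1 log2 unit and 96% of 100 changes of 2, with 7 false calls. In the data the mutant arrays spread more than the wild type arrays, a case that the simulation did not cover. Within-array differences and marker lists used exact permutation tests. Tables were made in Python 3.11.15 with pandas 2.3.3.

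The members and gene lists were chosen with earlier results of these data known. Named genes are all member probe sets, the called genes of each iron list or otherwise its 3 with the lowest p, and for likeness the 3 genes nearest to the brightest Tfrc probe set and to each called member probe set that differ by at least 0.5 times as much. Alternatives covered the variance prior, array weights, normalisation, dim and control probe sets, the replicate block, t-tests, the threshold, 1 value a gene and each array left out. The number of arrays limits the precision.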

Additional observations from a re-analysis of the deposited data

Results flagged for a closer look

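Spiked polyadenylated controls, which no comparison of genes uses, read 4.07 higher on the mutant than on the wild type arrays (mean log2 of 24 probe sets). Hybridisation controls, added after labelling, read 1.11 higher (mean log2 of 18 probe sets). In both, every mutant array lay above every wild type array, as every mutant array lay below every wild type array at all 6 Tfrc probe sets. Their part in the Tfrc values was not tested.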

How the results depend on the processing

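Of all 22629 probe sets, 531 were called. The count was 2677 with array weights, 112 with the replicate block, 81 with ordinary t-tests, 0 with unequal-variance t-tests (2861 at an unadjusted p under 0.05), 1392 at an adjusted p under 0.10 and 36 to 2547 with each array left out. At an unadjusted p under 0.05 there were 3860 of the 22629 with the replicate block and 3837 with ordinary t-tests. Of the 22 iron handling probe sets 4 were called, against 9 with array weights, 2 without control probe sets, 1 with the replicate block, 1 with ordinary t-tests, 0 with unequal-variance t-tests (5 at an unadjusted p under 0.05) and 0 to 8 with each array left out. Of the 119 probe sets of the other iron genes 3 were called, against 14 with array weights, 1 in the brighter 65 of them, 0 with the replicate block (20 at an unadjusted p under 0.05), 0 with ordinary t-tests (19), 0 with unequal-variance t-tests (15), 10 at an adjusted p under 0.10 and 0 to 12 with each array left out. The cause was not tested.

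Directions turned only for differences that were not called. With array weights Steap3 1423468_at turned to 0.17 and Slc25a37 to 0.0094. When quantile normalisation was repeated Slc11a2 1417584_at turned to -0.013 and Ireb2 to -0.053. The same repeat gave smaller differences at the brightest member probe sets. Tfrc 1452661_at went from -0.34 to -0.21 and Slc25a37 from -0.22 to -0.10. Fth1 went from -0.63 to -0.49 at 1427021_s_at and from -0.25 to -0.12 at 1448771_a_at. At Tfrc 1422966_a_at the difference was -1.11 with the repeat. With each array left out the ranges that crossed 0 were -0.086 to 0.49 (Tfr2 1425381_a_at), -0.13 to 0.23 (Slc11a2 1417584_at), -0.33 to 0.13 (Slc11a2 1426441_at), -0.14 to 0.23 (Steap3 1423468_at), -0.10 to 0.14 (Ireb2), -0.030 to 0.20 (Aco1 1456728_x_at), -0.053 to 0.23 (Aco1 1423644_at) and -0.45 to 0.060 (Slc25a37).

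Tfrc 1422966_a_at was called in 14 of 17 alternatives (adjusted p 0.00043 to 0.17), the 3' and 5' controls in 9 of 16 each and Fth1 1427021_s_at in 9 of 17. The replicate numbers are not known to pair the samples: same-numbered deviations correlated at 0.03 to 0.06, and 6 of 6 arrays correlated best with their own number, a hint from the data only. With the replicate block the adjusted p was 0.029 for 1422966_a_at, 0.058 and 0.057 for the 3' and 5' controls and 0.12 for Fth1.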
